A study of Homo sapiens with 6 samples.

Results

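Regions described here carried a peak of DNA-RNA hybrid signal in 3 of 3 shNC3 samples and in 0 of 3 shT2 samples. The peaks of all 6 samples were merged wherever they touched, which gave 75758 regions, and 2170 of them (2.86%) met this rule. They are called shNC3-only regions below. The samples are SH-SY5Y cells, an established human neuroblastoma line, that received a lentiviral vector with 1 of 2 short hairpin RNAs, shT2 (3 samples) or shNC3 (3 samples). The series concerns knockdown of TDP-43, an RNA-binding protein encoded by TARDBP. The labels do not say which hairpin targets it. From the names, shT2 is read as the knockdown and shNC3 as the negative control. All cells were selected in puromycin at 2 µg/mL for 2 weeks and kept in 1 µg/mL. No label says whether the 3 samples of a hairpin came from separate infections or cultures. In a bulk sample, fewer cells with a hybrid and less hybrid per cell cannot be told apart.

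An R-loop is a stretch in which an RNA strand pairs with its DNA template and leaves the other DNA strand single. R-loops form behind RNA polymerase, often where the transcript is rich in G just downstream of CpG-island promoters and near the ends of genes, so their pattern follows which genes are transcribed. DRIP-seq recovers them from restriction-digested nucleic acids with the S9.6 antibody, and a peak marks where more fragments were recovered than in the local background. Background knowledge of SH-SY5Y cells places them in the noradrenergic state of neuroblastoma, marked by factors such as HAND2 and GATA3, while a mesenchymal state of the same tumour expresses collagens, vimentin and AP-1 factors.

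The regions were chosen by the presence of a peak in each of the 6 samples. The contrast between the hairpins is therefore given as a description, with no test, and supports nothing. The set made up 10.6% of the 20486 regions that had a peak in all 3 shNC3 samples. The mirror set, with a peak in 3 of 3 shT2 and 0 of 3 shNC3 samples, held 4447 regions, and 15574 regions had a peak in all 6 samples. Leaving out shNC3 replicate 1, 2 or 3 from the rule, which loosens it, gave 3382, 3823 and 3462 regions. A missing peak is not a missing signal: the genome-wide depth recovered from the deposited values was 3.08 to 3.46 fragments per base in shT2 samples and 1.65 to 1.79 in shNC3 samples. The lowest peak summits called against that background stood at 3.76 to 3.92 times the depth in shT2 samples and at 4.46 to 4.84 times in shNC3 samples, so shT2 samples had calls at lower relative heights. Summit heights could be recovered in all 3 shNC3 samples for 1858 regions, and the median of their lowest relative height was 7.26. The rule asks for calls in shNC3 samples, whose lowest summits stood higher, so heights above the lowest shT2 summits were fixed in advance. They say nothing of the shT2 signal at these regions. TARDBP itself had 9702, 9573 and 7819 covered bp in shT2 samples, against 11725, 10554 and 10239 bp in shNC3 samples. A hairpin acts on the RNA, so these values do not check the labels.

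The promoters below belong to named genes whose window lay wholly inside one of the wide regions described next. They are examples taken by covered width and do not stand for the set. Each is the RefSeq window of GRCh38.p14 from 250 bases before to 50 after the gene's start, printed 5′ to 3′ on the gene's strand. Capitals mark GGGCGG, the box bound by SP1, and TGANTCA, the site bound by AP-1, on either strand. The windows are SEPTIN6 (chrX:119693119-119693418, minus strand), CDSN (chr6:31120397-31120696, minus strand), RASA3 (chr13:114132574-114132873, minus strand), UCN2 (chr3:48563732-48564031, minus strand), CXCL12 (chr10:44385048-44385347, minus strand) and GADD45B (chr19:2475877-2476176, plus strand).
SEPTIN6: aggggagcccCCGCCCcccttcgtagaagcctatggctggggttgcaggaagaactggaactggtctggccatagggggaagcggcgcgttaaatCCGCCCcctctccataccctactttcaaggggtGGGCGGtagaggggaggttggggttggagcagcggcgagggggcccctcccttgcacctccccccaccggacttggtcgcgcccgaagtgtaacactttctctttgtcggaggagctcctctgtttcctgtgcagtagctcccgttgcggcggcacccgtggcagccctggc
CDSN: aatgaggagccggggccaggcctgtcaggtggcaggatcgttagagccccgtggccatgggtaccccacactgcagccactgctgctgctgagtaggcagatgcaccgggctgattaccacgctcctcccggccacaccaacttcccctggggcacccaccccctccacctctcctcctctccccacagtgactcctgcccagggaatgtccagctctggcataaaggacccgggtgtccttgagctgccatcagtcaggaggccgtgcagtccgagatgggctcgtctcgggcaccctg
RASA3: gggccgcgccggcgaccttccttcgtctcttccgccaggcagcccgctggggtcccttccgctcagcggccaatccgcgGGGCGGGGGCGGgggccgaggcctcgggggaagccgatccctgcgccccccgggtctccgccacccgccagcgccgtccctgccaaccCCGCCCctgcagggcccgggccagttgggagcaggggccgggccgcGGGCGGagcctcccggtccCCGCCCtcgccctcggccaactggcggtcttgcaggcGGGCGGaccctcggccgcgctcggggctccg
UCN2: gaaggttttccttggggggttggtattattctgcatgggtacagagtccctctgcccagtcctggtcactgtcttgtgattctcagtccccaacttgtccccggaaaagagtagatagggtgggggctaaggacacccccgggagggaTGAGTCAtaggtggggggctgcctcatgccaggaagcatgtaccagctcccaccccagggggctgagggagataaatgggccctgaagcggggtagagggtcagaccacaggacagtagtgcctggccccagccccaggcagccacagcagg
CXCL12: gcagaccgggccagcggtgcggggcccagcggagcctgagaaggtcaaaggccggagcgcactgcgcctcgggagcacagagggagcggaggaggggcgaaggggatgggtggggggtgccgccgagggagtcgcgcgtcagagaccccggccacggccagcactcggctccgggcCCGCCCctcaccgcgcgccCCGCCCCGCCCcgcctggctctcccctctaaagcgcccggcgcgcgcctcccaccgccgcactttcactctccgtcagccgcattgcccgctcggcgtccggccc
GADD45B: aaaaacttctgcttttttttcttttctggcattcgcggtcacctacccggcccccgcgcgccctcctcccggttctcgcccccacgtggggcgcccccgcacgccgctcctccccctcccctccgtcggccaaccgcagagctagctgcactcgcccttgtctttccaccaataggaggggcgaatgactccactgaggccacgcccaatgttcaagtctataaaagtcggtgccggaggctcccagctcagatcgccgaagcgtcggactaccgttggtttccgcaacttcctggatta

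These 6 windows differ in composition. RASA3, a GTPase-activating protein gene of the Ras pathway, had a GC content of 80.7%, an observed over expected CpG ratio of 0.824 and 6 SP1 boxes. CXCL12, a chemokine gene, had 77.0% GC, a CpG ratio of 0.879 and 3 boxes. GADD45B, a stress response gene, had the highest CpG ratio of the 6 (1.01) and neither motif. UCN2, which encodes the peptide hormone urocortin 2, and CDSN, which encodes corneodesmosin of the skin barrier, had CpG ratios of 0.113 and 0.353. SEPTIN6, a septin of the cytoskeleton, had a ratio of 0.569 and 3 SP1 boxes. These 3 windows lie under the ratio of 0.6 used below, and UCN2 held the 1 AP-1 site among the 6 windows. The UCN2 window lies in a region shared with the neighbouring genes COL7A1 and PFKFB4.

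Across the table of promoter windows, 263 lay wholly inside shNC3-only regions, 121 inside shT2-only regions and 5452 inside regions found in all samples. Their median GC content was 68.0% in shNC3-only regions, 57.3% in shT2-only regions and 67.3% in regions of all samples, beside 58.3% over all 27305 windows. A GGGCGG box stood in 75.3%, 42.1%, 73.3% and 44.5% of these windows in the same order, and a CpG ratio of at least 0.6 in 78.7%, 67.8%, 81.9% and 48.8%. The AP-1 motif was in 3.42% of the windows in shNC3-only regions, 4.13% in shT2-only regions, 4.04% in regions of all samples and 7.72% of all windows. GGAATG, the motif of TEAD factors, was in 11.8%, 12.4%, 10.5% and 14.1%. An E-box (CANNTG) was in 49.0%, 72.7%, 57.8% and 69.0%, and a cut site of 1 or more of the 5 restriction enzymes in 8.37%, 6.61%, 4.73% and 22.8%. The median GC skew was −0.025 in shNC3-only regions, 0 in shT2-only regions, 0.0045 in regions of all samples and 0.0044 over all windows. A window holds only 50 bases after the start, so skew farther downstream was not measured. In GC content and SP1 boxes, promoters inside shNC3-only regions thus lay nearer to those covered in all samples than to those inside shT2-only regions, while their E-box share was the lowest of the 4. These shares are descriptions of letters in a window and say nothing of bound factors.

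The regions were narrower than those found in all samples, close in width to shT2-only regions and wider than the regions of the series as a whole. Their median merged width was 1072 bp, with quartiles of 702 and 1707 bp, a lowest width of 303 bp and a highest of 12709 bp. The median was 3291 bp for regions of all samples, 1078 bp for shT2-only regions and 605 bp over all 75758 regions. The median covered length per region was 754, 620 and 712.5 bp in shNC3 replicates 1, 2 and 3, and the median summit fold enrichment was 5.26, 5.25 and 5.10. The fold enrichment is the authors' value for the summit over the local background. Within a region, the 3 samples spread by a median coefficient of variation of 28.4% for covered length and 15.5% for fold enrichment. Between pairs of samples, the log2 covered lengths correlated at r = 0.72 to 0.75 and the log2 folds at r = 0.59 to 0.61 over the 2170 regions, which share libraries and the rule. Wider regions also had higher summits (r = 0.52 between log2 mean covered length and log2 mean fold). A fold of at least 5 in all 3 samples was reached by 674 regions (31.1%), and a fold of at least 10 by 22 regions.

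The 219 regions with over 2000 mean covered bp had a median mean fold of 7.17. A mean fold of at least 10 was reached by 56 regions, 43 of them among these 219. The 20 widest are shown in the plot of covered bases. The widest of all spanned 12709 bp at an edge, of unknown side, of ITGA3, a laminin-binding integrin subunit, and at the start of the lncRNA gene PICART1, at chr17:50054111-50066819. All 3 shNC3 samples covered it from end to end, with summit folds of 10.9, 8.22 and 13.9, and its nearest shT2 peak lay 13.6 kb away. A region of 10126 bp at chr12:52946580-52956705 holds KRT18 and part of KRT8, the paired keratins of simple epithelia. It too was covered whole in all 3 shNC3 samples, at folds of 12.04, 13.5 and 14.4. KRT80, another keratin gene on the same chromosome, carried 9499, 7854 and 9311 covered bp at its edge.

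**Figure D1:**
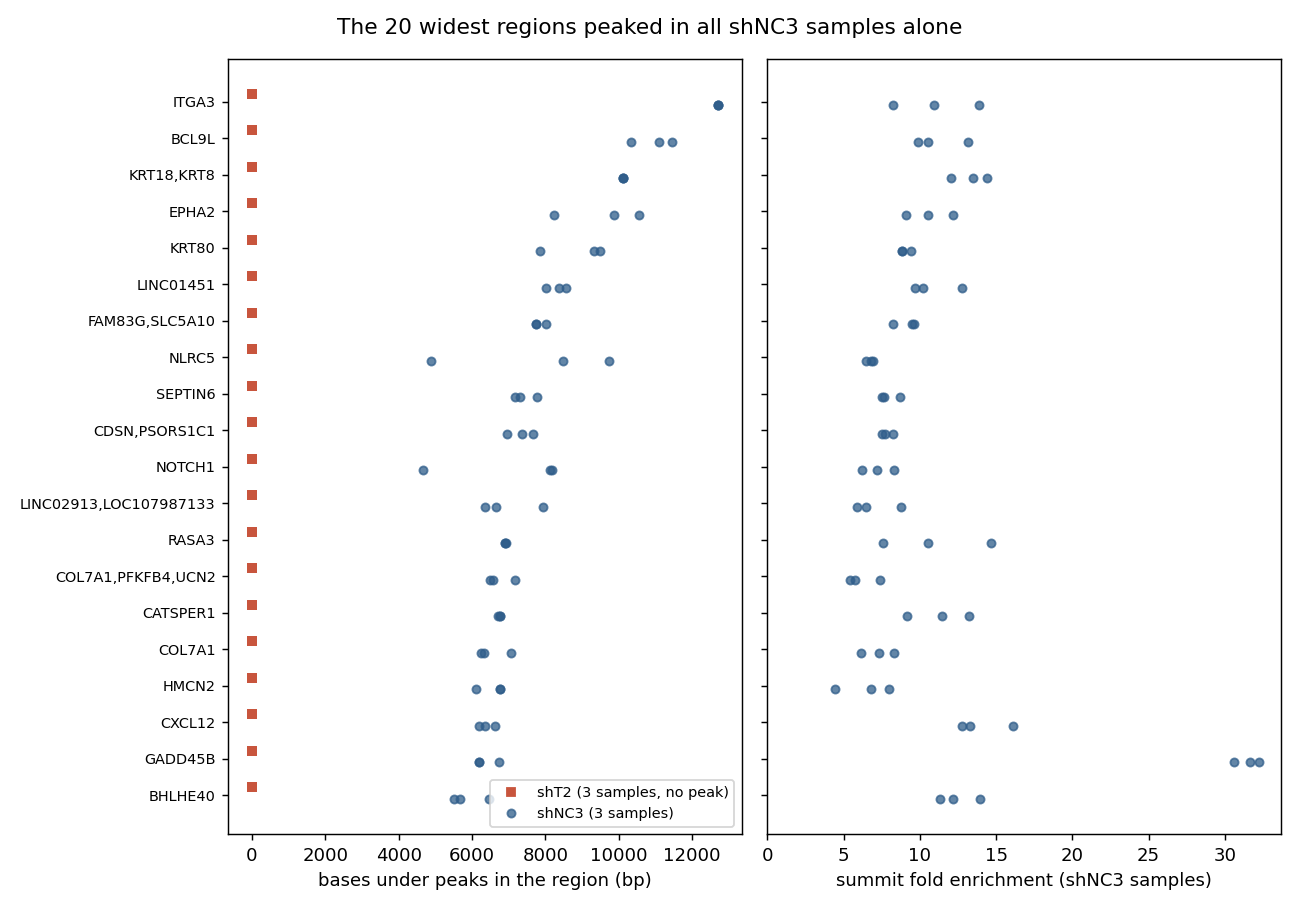
Covered bases (left, bp) and summit fold enrichment (right) of the 20 widest shNC3-only regions, labelled by the genes they overlap; each dot is 1 shNC3 sample and each square marks the 3 shT2 samples, which have 0 bp by the rule. Covered length averages 5885 bp (BHLHE40) to 12709 bp (ITGA3), and GADD45B stands apart in fold, at 30.6 to 32.3.

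Other wide regions lay at receptor and signalling genes. EPHA2, a receptor of the ephrin family, carried a body region of 10563, 8234 and 9874 covered bp at chr1:16127911-16138473. BCL9L, a co-activator of beta-catenin, had 11098, 10342 and 11453 bp at an edge whose side the strand-less annotation leaves unknown. NLRC5, the transactivator of HLA class I genes, had 9738, 4882 and 8483 bp in its body, and the low replicate 2 shows how far 1 sample can depart. NOTCH1, a receptor of cell-to-cell signalling, had 8118, 4665 and 8190 bp inside its span, at the end of an overlapping lncRNA gene, again lowest in replicate 2. Replicate 2 is the shNC3 library with the lowest depth, and the part of depth in these values was not tested.

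The highest summit was at GADD45B, chr19:2473917-2480657, where the fold was 32.3, 31.7 and 30.6 and the lowest −log10 q was 104. The next by mean fold was PRSS23, a secreted serine protease gene, at 17.9, 17.7 and 19.3 (chr11:86797755-86801475). A short region of 1031 bp in the body of CNN2, an actin-binding calponin gene, reached 15.1, 13.1 and 17.9. CXCL12 held 2 of the 10 highest summits, one over its start at 16.1, 12.8 and 13.3 and one in its body at 16.8, 13.2 and 13.9. NRP1, a receptor for semaphorins and VEGF, had folds of 14.7, 15.8 and 11.6 at an edge.

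Regions at gene starts were more frequent than in the mirror set or over all regions, and less frequent than among regions of all samples. A region counts as at a start when it comes within 2 kb of the start of a protein-coding or lncRNA gene whose strand is known, outside chromosome 8, unplaced contigs and the mitochondrial genome. Of 2086 regions, 621 (29.8%, 95% Wilson interval of counting error 27.8 to 31.8%) were at a start. The share was 10.4% of 4295 shT2-only regions and 38.8% of 15163 regions found in all samples. Over all 73439 placed regions it was 19.6%, so the shT2-only set lay below that share and the shNC3-only set above it. Gene ends had 6.09% of shNC3-only regions, 13.0% of shT2-only regions and 13.4% of regions of all samples. Gene bodies had 46.6%, 61.9% and 34.6% in the same order, and 11.0%, 9.90% and 4.03% were intergenic. Over all placed regions, gene ends had 9.29% and gene bodies 57.3%, and 8.09% were intergenic.

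**Figure D2:**
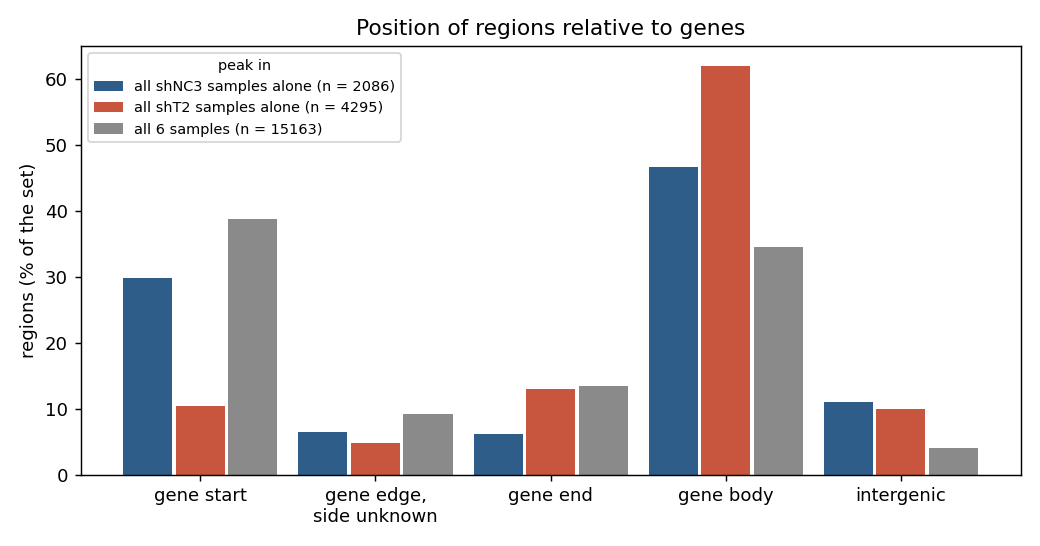
Share of regions (%) by position relative to genes, for regions peaked in all shNC3 samples alone, all shT2 samples alone and all 6 samples (bars; n in the legend). Gene starts hold 29.8% of the shNC3-only regions, 10.4% of the shT2-only regions and 38.8% of the regions in all samples. Over all 73439 placed regions, not drawn, the share is 19.6%.

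The same order of the 3 sets was seen in each of 3 width bins. Among regions up to 700 bp wide, 26.7% of the shNC3-only set, 11.99% of the shT2-only set and 35.1% of the regions of all samples were at a start. From 700 to 1500 bp the shares were 26.0%, 10.5% and 37.7%, and above 1500 bp they were 37.8%, 8.87% and 39.0%. In a further setting, peaks of both hairpins with a summit enriched under 5-fold were left out before merging. The start share was then 36.1% of 1508 shNC3-only and 15.1% of 2009 shT2-only regions. A region with a weaker peak of the other hairpin can enter at this setting. These regions are therefore not simply the stronger part of the sets above. No test was made, because regions of 1 gene and 1 set of libraries are not independent replicates.

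Position also went with strength inside the set. The 621 start regions had a median covered length of 793 bp and a median fold of 5.48, against 672 bp and 5.10 for the 972 body regions and 643 bp and 5.01 for the 230 intergenic regions. Over 2000 mean covered bp were reached by 15.3% of start regions, 7.30% of body regions and 2.61% of intergenic regions. Of the 54 regions with a mean fold of at least 10 that could be placed, 29 were at a start. A wider region comes within reach of a start more readily, and start took priority over the other positions. The differences in length are therefore in part built into the labels, and fold rose with covered length.

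The regions fell unevenly on genes. A gene was counted as a host when its span, extended by 2 kb on each side, overlapped a region, and 1927 regions had at least 1 host. The hosts were 1410 protein-coding and 373 lncRNA genes. Among the 13049 protein-coding genes with a region of any kind, 10.8% hosted a shNC3-only region and 18.5% a shT2-only region. Both kinds were held by few genes: 139 of the 1410 hosts (9.86%) also held a shT2-only region. No shT2 peak of any kind was found in 295 hosts (20.9%), beside 1031 (7.90%) of the 13049 genes, a difference that the choice of regions favours. More than 1 region was held by 330 hosts.

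COL5A1, which encodes a chain of the fibril-forming collagen V, held 23 shNC3-only regions, the most of any gene. They covered 39588, 32722 and 37509 bp in shNC3 samples, and their merged widths sum to 23.6% of the gene's 203041 bp. Single regions had mean folds of 3.74 to 10.5. The whole gene had 1440, 2491 and 1189 covered bp in shT2 samples, against 68264, 49415 and 60061 bp in shNC3 samples, so the hairpins did not overlap. All 3 shT2 samples had a peak near the start, and their few other peaks lay at about 69 to 72 kb and, in replicate 3, at 107 kb, as the map of the gene shows.

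**Figure D3:**
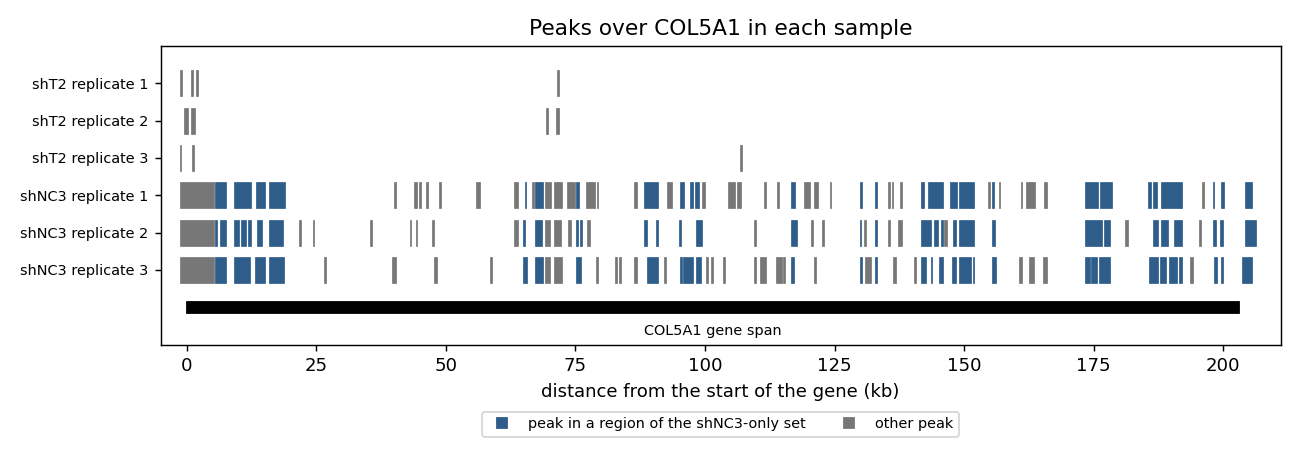
Peaks over COL5A1 in each sample, by distance from the start of the gene (kb); blue peaks belong to the 23 shNC3-only regions, grey peaks do not, and the black bar is the gene span. The shT2 rows hold 1189 to 2491 covered bp and the shNC3 rows 49415 to 68264 bp.

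MYH9, the heavy chain of non-muscle myosin IIA, held 18 regions with 29647, 25875 and 27152 covered bp. Over the whole gene, shT2 samples had 9443, 12127 and 9972 bp and shNC3 samples 56993, 51742 and 56923 bp. RASA3 held 15 regions, with 1352, 1701 and 621 bp over the gene in shT2 samples against 41621, 34085 and 41842 bp in shNC3 samples. LTBP2, a latent TGF-beta binding protein of the matrix, held 9 regions and had no shT2 peak at all, against 26068, 20092 and 23881 bp in shNC3 samples. IL4R, the interleukin-4 receptor, also held 9 and was at 0 in shT2 samples, against 14214, 13097 and 14646 bp in shNC3 samples. FAM83G and SLC5A10, which overlap, share 5 regions of 16969, 13972 and 16291 bp.

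Some hosts kept much of their signal under both hairpins. PIEZO1, a mechanosensitive ion channel gene, held 7 regions of the set, while the gene had 16581, 17801 and 15453 covered bp in shT2 samples and 36507, 31547 and 33992 bp in shNC3 samples. DAB2IP, a Ras GTPase-activating protein gene, held 6 regions, and its hairpins overlapped over the gene: 32179, 32746 and 29574 bp in shT2 samples against 43524, 32052 and 43434 bp in shNC3 samples. A shNC3-only region can thus be a local difference inside a gene that is covered in all samples.

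The bases of the host genes outside shNC3-only and shT2-only regions were then compared with limma over 11306 protein-coding genes, with Benjamini-Hochberg adjustment at 0.05. Over all genes 21.2% (2396) were called lower in shT2 samples and 19.4% (2198) higher. Without scaling to the total covered length, 1502 were called lower and 2373 higher, so the balance over all genes turns with the scaling. Of the 1144 hosts that could be tested, 589 (51.5%) were called lower, 70 (6.12%) higher and 485 (42.4%) did not pass, against 420 lower and 78 higher without scaling. The median log2 difference was −0.39 over the hosts and −0.06 over all genes, and −0.28 and 0.05 without scaling. These counts come from the samples and the contrast that chose the regions, so nothing is read from them about the set.

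The genes of 16 lists were counted as hosts. A longer gene can overlap a region more readily, and gene length was not adjusted for. The plot of gene lists sets the counts beside the 10.8% and 18.5% of protein-coding genes with a region. A gene with peaks in shNC3 samples alone enters these shares only through the group that the rule favours. Over whole lists, with or without a region, 1410 of 20056 protein-coding genes were hosts. Beside that stood 10 of 187 cytokine and chemokine, 5 of 41 keratin and epithelial junction and 21 of 54 actomyosin genes. Several of the lists concern adhesion and the matrix. Of 47 matrix and TGF-beta genes with a region, 17 held a shNC3-only region and 5 a shT2-only one, and 6 hosts were left without regions that had a shT2 peak within 10 kb. Besides LTBP2, LOXL2, a collagen cross-linking enzyme, had 5676, 5617 and 4890 bp of the set. SPARC, a matrix glycoprotein, had 4443, 3053 and 2976 bp, over a gene with 0, 1615 and 1260 bp in shT2 samples and 15033, 11056 and 9647 bp in shNC3 samples. TGFB1 had only 1032, 1103 and 1274 bp of the set, but over the gene 1284, 1602 and 508 bp in shT2 samples against 12346, 9885 and 9460 bp in shNC3 samples.

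**Figure D4:**
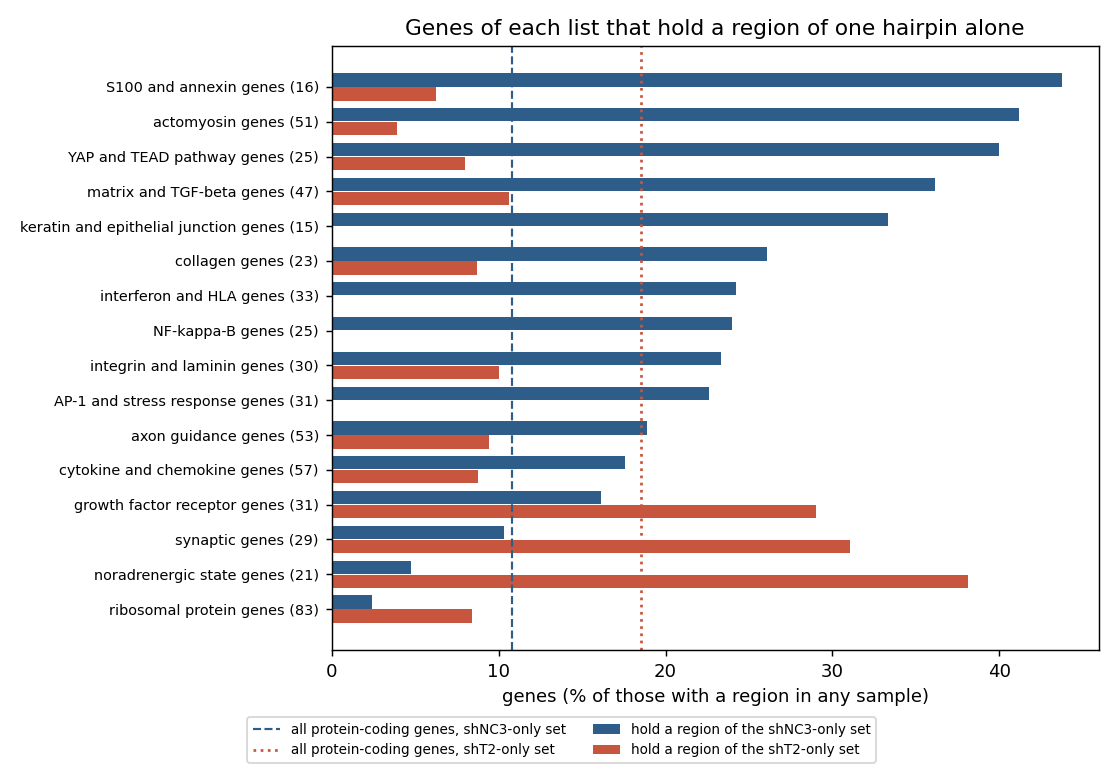
Genes (% of those with a region in any sample, their number in parentheses) that hold a region of the shNC3-only set (blue, above) or the shT2-only set (red, below), by list. Vertical lines mark all protein-coding genes with a region in any sample, at 10.8% and 18.5%. The blue bars run from 2.41% (ribosomal proteins) to 43.8% (S100 and annexin genes).

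Of 23 collagen genes with a region, 6 were hosts of the shNC3-only set and 2 of the shT2-only set. COL7A1, the anchoring fibril collagen, had 13371, 13250 and 13904 bp in 3 regions. COL1A1 had 1938, 1867 and 1935 bp of the set, over a gene with 334, 0 and 332 bp in shT2 samples and 13386, 13311 and 13742 bp in shNC3 samples. Integrin and laminin genes counted 7 hosts of 30, against 3 for the shT2-only set. ITGB5, with 4408, 3700 and 4153 bp, and ITGA5, the fibronectin receptor subunit with 2224, 1150 and 1913 bp, had no shT2 peak. One of the 7, ITGB1BP1, is a gene for a protein that binds an integrin, not an integrin. Keratin and epithelial junction genes counted 5 hosts of 15 and none of the shT2-only set. With only peaks enriched 5-fold or more, a setting that also drops weaker shT2 peaks before the rule, 3 keratin and 3 integrin list genes were hosts. KRT8 and KRT18 share 1 region, so the 5 hosts stand for 4 loci.

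Of 51 actomyosin genes with a region, 21 held a shNC3-only region and 2 a shT2-only one. Without regions that had a shT2 peak within 10 kb, 4 of the 21 were left. After MYH9, FLNC, a filamin that cross-links actin, had 13484, 12414 and 14991 bp, over a gene with 0, 1605 and 1468 bp in shT2 samples and 22528, 20905 and 24849 bp in shNC3 samples. TNS1, a tensin of focal adhesions, held 10 regions and had 11590, 10500 and 13277 bp over the gene in shT2 samples against 62355, 54324 and 55061 bp in shNC3 samples. CSRP1, a LIM-domain protein gene, had 1707, 1906 and 828 bp in shT2 samples against 21151, 20067 and 19843 bp in shNC3 samples. In FLNA, by contrast, the set took 991, 485 and 925 bp of a gene covered at 25302, 23294 and 24418 bp in shT2 samples and 26889, 27267 and 27116 bp in shNC3 samples.

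S100 and annexin genes, which encode calcium-binding proteins, counted 7 hosts of 16 and 1 of the shT2-only set. ANXA2 had 5919, 5613 and 4899 bp of the set, with 914, 2105 and 1708 bp over the gene in shT2 samples and 12015, 10808 and 11737 bp in shNC3 samples. S100A16 had no shT2 peak and 4059, 2437 and 3255 bp in shNC3 samples. YAP and TEAD pathway genes counted 10 hosts of 25, against 2. Among them CCN2, a target of the pathway, had 1514, 1170 and 1655 bp and YAP1, its co-activator, had 1451, 1120 and 1471 bp of the set, with no shT2 peak at either gene. NUAK2, a kinase gene, had 3071, 2950 and 1881 bp and no shT2 peak.

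NF-kappa-B genes counted 6 hosts of 25 and none of the shT2-only set. The count was 2 without regions that had a shT2 peak within 10 kb and 12 without shNC3 replicate 2. Hosts over all genes also fall and rise at these settings. RELB, a subunit of the non-canonical pathway, held 5 regions with 10426, 7011 and 9968 bp. The gene had 321, 324 and 376 bp in shT2 samples, against 21698, 18819 and 21916 bp in shNC3 samples. BCL3, an atypical member of the inhibitor family of the pathway, had 6028, 4388 and 6197 bp and no shT2 peak. AP-1 and stress response genes counted 7 hosts of 31, of which 2 were left at that distance, and none of the shT2-only set, with GADD45B first and FOSL1, an AP-1 subunit, next at 3936, 3132 and 3429 bp.

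Interferon and HLA genes counted 8 hosts of 33 and none of the shT2-only set, with 4 left where no shT2 peak lay within 10 kb and 13 without shNC3 replicate 2. HLA-C had 2371, 2659 and 3322 bp and IFITM3, a restriction factor of viruses, 1403, 972 and 997 bp, and neither had a shT2 peak. Cytokine and chemokine genes counted 10 hosts of 57 against 5 for the shT2-only set, with 5 left at that distance. LIF, a cytokine of the interleukin-6 family, had 5743, 5475 and 4617 bp and no shT2 peak. Axon guidance genes counted 10 hosts of 53 against 5 (16 without shNC3 replicate 3), with EPHA2 first and PLXNA2, a semaphorin receptor, next at 6267, 6143 and 4690 bp. Growth factor receptor genes counted 5 hosts of 31 against 9, with 2 left at that distance and 8 without shNC3 replicate 2 or 3. PTK7, a pseudokinase receptor, had 1793, 1840 and 3090 bp of the set, over a gene with 15550, 16509 and 15475 bp in shT2 samples and 18736, 13637 and 19585 bp in shNC3 samples. PDGFRB, a platelet-derived growth factor receptor, had 889, 874 and 383 bp of the set, over a gene with 28426, 31326 and 30702 bp in shT2 samples and 26469, 25053 and 25512 bp in shNC3 samples. EGFR, with 1119, 432 and 446 bp of the set, was the 1 host of the 5 with no shT2 peak.

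Noradrenergic, synaptic and ribosomal protein genes had shares of 4.76%, 10.3% and 2.41%, beside the 10.8% of all protein-coding genes with a region. For the shT2-only set the shares were 38.1%, 31.0% and 8.43%, beside 18.5%. The synaptic share was thus close to that of all genes for the shNC3-only set, and the ribosomal share was low for both sets. Of 21 noradrenergic state genes with a region, 1 held a shNC3-only region (2 without shT2 replicate 3) and 8 a shT2-only region. That 1 was DBH, the enzyme that makes noradrenaline, with 398, 484 and 387 bp of the set in a gene covered at 14250, 12572 and 13352 bp in shT2 samples and 13267, 12543 and 12248 bp in shNC3 samples. Synaptic genes counted 3 hosts of 29 (6 without shNC3 replicate 3), against 9, and STX1A, a syntaxin of vesicle fusion, had 2640, 2323 and 2640 bp. Ribosomal protein genes counted 2 hosts of 83 (4 without shNC3 replicate 3), against 7.

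Markers of cell states are given beside these groups. Several of them are hosts or members of the lists above, so their sums include bases of the set and are no second observation. Covered bases summed over 10 mesenchymal markers were 24.2, 25.0 and 26.6 kb in shT2 samples and 65.0, 63.5 and 61.2 kb in shNC3 samples. Of the 10, 6 hosted a shNC3-only region, among them PRRX1, COL1A1, YAP1 and FOSL1. VIM, the vimentin gene, had 6935 bp in each of the 6 samples, 5 of the 10 had a peak in all 6 samples, and COL1A2 and SNAI2 had no peak in any. The sum over 12 noradrenergic markers was 113, 114 and 117 kb in shT2 samples and 91.6, 89.0 and 92.1 kb in shNC3 samples, and 10 of the 12 had a peak in all 6 samples. TH had none, and MYCN had 313, 0 and 0 bp in shT2 samples and 0 in shNC3 samples. Over 7 epithelial markers the sums were 5.70, 6.01 and 6.04 kb in shT2 samples and 19.3, 19.0 and 20.2 kb in shNC3 samples. KRT8 and KRT18, which share 1 region of the set, had no shT2 peak and CLDN4 was covered in all 6 samples. EPCAM had 0, 311 and 558 bp in shT2 samples and 0 in shNC3 samples, and KRT7, KRT19 and CDH1 were at 0. The 5 blood and 4 endothelial markers were at 0 in every sample. The part of a shift in cell state in the regions was not tested.

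Most regions lay near shT2 peaks, much as shT2-only regions lay near shNC3 peaks. The median distance from a region to the nearest shT2 peak was 4189 bp, and 499 regions were within 1 kb. At the other end, 351 regions (16.2%) were over 100 kb from any shT2 peak, against 5.89% of shT2-only regions relative to shNC3 peaks. These 351 were intergenic in 27.0% of placed cases and at a start in 34.9%, beside 11.0% and 29.8% over the set. The farthest was an intergenic region at chr4:33850522-33851110, 4128 kb from the nearest shT2 peak, with 545, 320 and 589 covered bp. PCDH15 and LRP1B, long neuronal genes for adhesion and lipoprotein receptor proteins, held 3 of the 5 farthest. Within 50 kb of another region of the set lay 1082 regions (49.9%).

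A group of regions had the same 2 end positions in all 3 shNC3 samples. There were 157 of these (7.24%), close to the 6.77% among shT2-only regions. Their distances differed between the sets: the median to the nearest peak of the other hairpin was 124377 bp for these shNC3-only regions and 6283 bp for the 301 such shT2-only regions. Over 100 kb lay 82 of the 157 (52.2%), against 24 of the 301 (7.97%). Of the other 2013 shNC3-only regions, 13.4% were at that distance or on a sequence with no shT2 peak. The 82 were spread over 20 chromosomes, had a median width of 876.5 bp, and 67 of them were not at a gene start. Nucleic acids were cut with BsrGI, EcoRI, HindIII, SspI and XbaI before the pulldown, per the labels' protocols. Cut sites were looked for in the promoter windows alone, not in the regions, and their part in the shared ends was not tested.

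**Figure D5:**
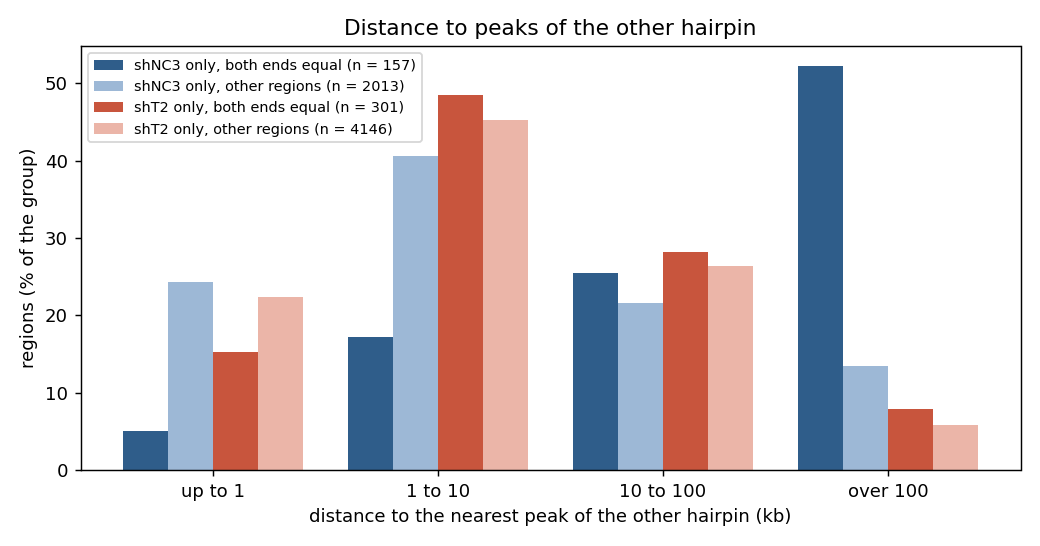
Share of regions (%) by distance to the nearest peak of the other hairpin (kb), for shNC3-only and shT2-only regions with both ends equal in their 3 samples and for the other regions of each set. Over 100 kb hold 52.2% of the shNC3-only regions with equal ends, 13.4% of the other shNC3-only regions, 7.97% of the shT2-only regions with equal ends and 5.86% of the rest.

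Over the assembled nuclear chromosomes, the set took 7.51% (chromosome 7) to 17.4% (chromosome 13) of the regions peaked in all shNC3 samples. RASA3 alone gave 15 of the 42 on chromosome 13. On unplaced or unlocalised sequences it took 10 of 34 (29.4%) and on the mitochondrial genome 1 of 5, at chrM:4781-5591, with folds of only 2.58, 2.71 and 2.65.

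The rule has a threshold at the presence of 1 peak. Just outside it, 1243 regions had a peak in 3 of 3 shNC3 and 1 of 3 shT2 samples. In those the shT2 peak had a median fold of 4.10 and 382 covered bp, while the mean fold over shNC3 samples had a median of 5.35, against 5.22 in the set. The nearest to the threshold was at chr2:237047291-237048002, where the 1 shT2 peak had a fold of 2.61 and the shNC3 peaks had folds of 7.85, 7.77 and 5.41. At CHD8, a chromatin remodeller gene, the values were 2.53 in shT2 and 5.60, 4.17 and 4.74 in shNC3 samples. On the other side, 3512 regions had a peak in 2 of 3 shNC3 and 0 of 3 shT2 samples, and shNC3 replicate 2 was the sample without one in 1519 of them. Just inside the rule, ZIC4, a transcription factor gene, had folds of 2.94, 5.28 and 3.30 with a lowest −log10 q of 2.01. MGAT1 and PTPRF were also just inside, with lowest folds of 2.76 and 3.08.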

How the data were processed

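DRIP-seq was run on 6 SH-SY5Y samples, 3 with shT2 and 3 with shNC3. Each has 1 deposited peak list, called per sample. Bowtie2 2.4.4, SAMtools, MACS2 2.2.6 and the build hg38 are named per the submitters' processing notes. The protocols mention an RNase H control of 6 hr, and the sources used here do not give the control that entered peak calling. For every peak the authors deposited a score, a fold enrichment (a linear ratio over local background), a −log10 p-value and a −log10 q-value. The deposited lists also hold a summit offset, which was not used.

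Peaks were merged with a gap of 0 bp and a sample counted with 1 bp of overlap (Python 3.11.15, pandas 2.3.3, pyranges 0.1.4). Fragment heights and depth were recovered from fold and p, assuming the caller's Poisson formula. Genes and promoters are those of RefSeq, GRCh38.p14, whose gene table has no strand, so start and end came from the promoter table, which is not complete. The covered length per gene outside one-hairpin regions was scaled to each sample's total and fitted as log2(bp + 500) with limma 3.58.1 in R 4.3.3, with trended, robust eBayes, over genes covered in at least 3 samples. The fit was also run on simulated normal values with the same spread for every gene. Covered lengths hold zeros beside long stretches, unlike those values, so that run does not vouch for the calls. The p-values of the fit to the samples reflect the spread among these libraries alone, and that spread may be technical.

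The members and the gene lists were chosen with earlier results of these data known. Regions named are the 20 widest, the 10 highest by mean fold, the 5 farthest from a shT2 peak and the 5 just inside and outside the rule. Genes named are their hosts, the 12 genes with most regions or bases, and up to 8 hosts per list with most bases. FLNA was added after its values were seen. Intervals cover counting error only.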

Additional observations from a re-analysis of the deposited data

How the results depend on the processing

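Merging across 100 bp, requiring 20% of the region to be covered, or asking for no shT2 peak within 1 kb kept the numbers of regions and protein-coding hosts within 1.5 times, the start share within its interval, and the median covered length and fold within 1 SD over the sample medians. Merging across 1000 bp gave 1423 regions of 807 median bp. Peaks of at least 5-fold enrichment gave a start share of 36.1%, 1165 bp and a fold of 6.68, and peaks with a −log10 q of at least 5 gave 33.4%, 931 bp and 6.08. Both filters were applied to both hairpins before the rule, so regions with a weaker shT2 peak can enter. They gave 1561 and 1501 regions, while only 674 regions of the set had a fold of at least 5 in all 3 shNC3 samples. With no shT2 peak within 10 kb, 827 regions, 449 hosts, a start share of 34.3% and a fold of 5.37 were left, since that setting removes regions by construction. An edge window of 1 kb gave a start share of 23.5%, one of 5 kb gave 42.5%, and assignment by the midpoint gave 26.0%. Values of shNC3 replicate 2 alone gave 620 bp and those of replicate 3 alone a fold of 5.10. Leaving out regions with both ends equal, an alternative chosen after seeing the data, gave a fold of 5.13. The cause of the other changes was not tested. Leaving out 1 sample in turn also loosens the rule to the samples that remain, so more regions can meet it. It gave 2534 to 3823 regions, a start share of 26.6 to 30.0%, 1646 to 2252 hosts, 559 to 699 bp and folds of 4.86 to 5.25. The limma fits kept the hosts and the regions of the full rule and only dropped 1 sample from the values. They called 482 to 511 of 1082 to 1137 tested hosts lower and 55 to 71 higher. With the replicate number as a block, 576 were called lower and 79 higher. Same-numbered samples did not deviate together (r of −0.06 to −0.01 over 11306 genes), so covered length showed no sign of pairing by number. The labels do not say whether same-numbered samples were prepared together. Without scaling, 420 hosts were called lower, and with 5-fold peaks 396. Over all genes the lower and higher counts were 2396 and 2198, against 1502 and 2373 without scaling and 1564 and 1469 with 5-fold peaks. Of 272 list counts under the alternatives, 239 stayed within 1.5 times. Asking for no shT2 peak within 10 kb left 4 of 21 actomyosin and 6 of 17 matrix hosts, but 8 of 10 YAP and TEAD and 7 of 10 axon guidance hosts. At that distance, hosts over all protein-coding genes fell from 1410 to 449. With 1 sample left out they rose to 1646 to 2252, so list counts can rise at those settings too. Peak lists limit all of this: absence means below the caller's threshold, and regions of unequal depth are not equally likely to be called.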
